A study of Mus musculus with 12 samples.

Results

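The genes described here are 35 mouse genes of the lysosome and of autophagy, the route by which a cell delivers its own contents to the lysosome for breakdown. They were chosen by name and function, with earlier results of these data known. They comprise 13 hydrolases and lumenal proteins of the lysosome, 7 of its membrane proteins, 5 subunits or accessory proteins of its proton pump, and 10 autophagy genes. All 35 were found among the 55401 gene IDs that each library lists, and all 35 were among the 6596 genes that passed the filter on low counts. The samples were adult mouse hearts of 2 genotypes, wild type (WT) and Rpl3l-/- (KO), which lacks the heart and skeletal muscle paralog of the ribosomal protein Rpl3. Each genotype was measured in 2 fractions, the Input (poly(A) RNA of heart homogenate) and the IP (poly(A) RNA that came down with ribosomes on an anti-HA antibody), with 3 biological replicates per group and 12 libraries in all. Hearts for the IP received 100 µg/mL cycloheximide, which holds ribosomes on the mRNA, both when they were taken out and in the homogenisation buffer. IP RNA was purified on RNeasy columns and Input RNA with TRIzol, so purification and fraction change together and cannot be told apart. If the Input hearts received no cycloheximide, the drug and the fraction cannot be told apart either. The labels do not give the age beyond adult, the sex, the strain, what carries or drives the HA tag and in which cells, or whether any heart gave both fractions.

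Lysosomes are acid compartments in which cathepsins and other hydrolases digest proteins, lipids and glycans. A vacuolar proton pump, the V-ATPase, keeps the lumen acid, and heavily glycosylated membrane proteins such as LAMP1 and LAMP2 line the organelle. In autophagy, the ULK1 and beclin complexes start a double membrane, small ubiquitin-like proteins of the LC3 and GABARAP families are joined to its lipids, receptors such as p62 (Sqstm1) bring cargo to them, and the closed vesicle fuses with a lysosome. In heart muscle the pathway clears worn mitochondria and protein aggregates, and loss of LAMP2 or of the glycogen-digesting enzyme encoded by Gaa causes inherited heart muscle disease.

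Many lysosomal genes carry in their promoters an E-box-like motif that the transcription factor TFEB and its relatives bind, so the promoters of the members were searched for it. RefSeq promoter windows (build GRCm38.p6, 250 bases before to 50 after the start) were at hand for 30 of the 35 members, and Ctsb, Npc1, Laptm4b, Map1lc3a and Becn1 had none. The palindrome TCACGTGA, which reads the same on both strands, stood in 4 of the 30 windows (13.3%), in 10 of 109 windows of other lysosome and autophagy genes (9.17%), and in 304 of 27025 windows of all genes (1.12%). Its core CACGTG, which every such match contains, stood in 8 of 30 (26.7%), 26 of 109 (23.9%) and 2187 of 27025 (8.09%). The longer form with a G before and a C after TCACGTGA stood in 0 of 30 member windows, 2 of 109 (1.83%) and 100 of 27025 (0.37%). The 4 members with TCACGTGA were Ctsd, Ctsa, Atp6v0d1 and Atp6v1a. The stretches upstream of the start around the match, with the motif in capitals, are shown for 3 of them because they are a sequence feature that the choice of members did not use.
Ctsd promoter, chr7:142387894-142387951, minus strand: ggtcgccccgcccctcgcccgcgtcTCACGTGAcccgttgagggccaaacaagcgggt
Ctsa promoter, chr2:164833735-164833772, plus strand: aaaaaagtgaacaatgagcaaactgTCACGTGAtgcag
Atp6v1a promoter, chr16:44139359-44139416, minus strand: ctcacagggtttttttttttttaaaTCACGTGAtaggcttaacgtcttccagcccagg
The motif began 99 bases before the RefSeq start in Ctsd, 13 before in Ctsa (with another match just after the start) and 132 before in Atp6v1a. A match is a string of letters, not a shown binding site, and none of the libraries measured binding. Of the 4 genes, Ctsd and Ctsa passed no test, Atp6v1a was higher in IP than Input in WT, and Atp6v0d1 was lower in IP than Input in KO. In KO against WT Input all 4 had positive differences (0.31 to 0.93) and in the genotype difference of the ratio all 4 had negative ones (-0.23 to -0.71), none of which passed. Of all 35 members, 23 were positive in the former and 23 negative in the latter. Both comparisons use the same Input libraries, so their signs are not independent. A link of the motif to these signs was not tested.

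Library totals were 356705 to 443177 counts in WT Input, 169359 to 291040 in KO Input, 549358 to 684762 in WT IP and 443525 to 710868 in KO IP, so KO Input was the shallowest group. All levels below are CPM, which are counts divided by the size of the library as scaled by its TMM factor. A count of 3 stands for 4.22 to 17.7 unscaled CPM, and at this depth 25 members had at least 10 counts in every library while the other 10 did not (lowest count 2). Haemoglobin genes took from 1.7% to 17.2% of the counts, most in WT IP replicate 2 (17.2%) and WT Input replicate 3 (13.8%). Rpl3l was read at 222 to 308 CPM in the 6 WT libraries, at 27.0 to 68.5 in KO Input and at 2.33 to 8.31 in KO IP, so each library matched its genotype label. The tissue is bulk heart, and fewer cells of a type and less RNA per cell cannot be told apart in it.

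Together the 35 members took 0.631% to 0.824% of the counts of a library. Their summed level was 7528 to 7788 CPM in WT Input, 7723 to 8205 in KO Input, 7369 to 7703 in WT IP and 7134 to 7778 in KO IP. The ranges of the 2 genotypes overlapped in both fractions. By mean CPM, the member with the highest level in WT Input was Map1lc3a, an LC3 gene (1121). Next came the protease Ctsd (869), the saposin precursor Psap (787), the membrane protein Laptm4a (601) and the protease Ctsb (441). At the other end stood the autophagy gene Atg5 (15.8), the acid lipase Lipa (14.9) and the pump subunit Atp6v1a (12.2).

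The comparison of IP with Input asks which mRNAs were over- or under-represented among ribosome-bound RNA relative to all poly(A) RNA of the heart. In WT, 8 of 35 members passed the test (22.9%), 4 higher and 4 lower in IP, against 14% of all 6596 tested genes (5.37% higher and 8.67% lower). In KO, 6 of 35 passed (17.1%), 2 higher and 4 lower, against 16.4% (6.64% higher and 9.78% lower). The KO share is near the background and is no result about the members as a group, and the WT share rests on few genes. The WT count fell to between 2 and 5 when any 1 WT library was left out (4 without Input replicate 1 or 2, 3 without Input replicate 3, 2 without IP replicate 1, 4 without IP replicate 2 and 5 without IP replicate 3), and to 1, Grn, without both high-haemoglobin libraries, WT Input replicate 3 and WT IP replicate 2. The share of all tested genes called fell as well. It was 8.46% to 9.62% with 1 WT library left out and 5.98% without both high-haemoglobin libraries, so these lower counts are not particular to the members. The KO count was 3 without KO Input replicate 2 and 4 without KO Input replicate 1, and 5 to 8 without any other KO library. Of all tested genes, 10.5% were called without KO Input replicate 2 and 10.4% without KO Input replicate 1. Without any other KO library the share was 11.6% to 14.3%. With library totals in place of TMM factors the counts were 5 higher and 1 lower in WT, and 5 higher and 3 lower in KO, against 12.5% and 15.9% of all tested genes called. The median log2 ratio of the members was 0.04 in WT and -0.16 in KO, and that of all tested genes 0.02 and 0.01. All libraries of a fraction lay above those of the other for 8 members higher in IP in WT (16.4% of all genes did so) and 7 lower (18.2%), and for 6 higher (15.2%) and 7 lower (15.6%) in KO. Progranulin (Grn) was higher and Gabarap and Map1lc3a were lower in IP in both genotypes.

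**Figure D1:**
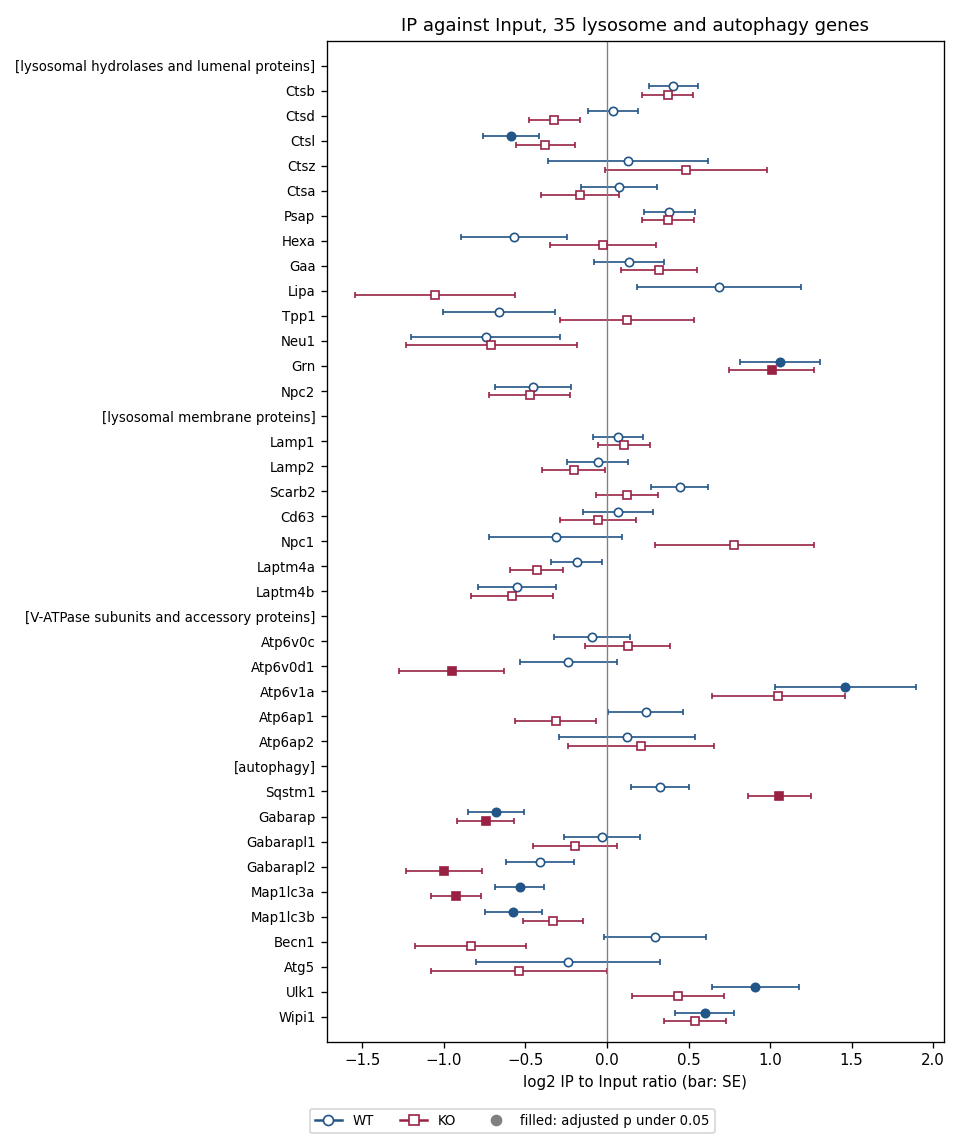
Log2 IP to Input ratio (horizontal axis) of the 35 members in WT (circles) and KO (squares), with SE bars, grouped by role; filled symbols passed the test at an adjusted p under 0.05. Passing members were 8 in WT and 6 in KO, and the 7 lysosomal membrane proteins have no filled symbol.

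Among the 13 hydrolases and lumenal proteins, 1 passed higher and 1 lower in WT, and 1 higher in KO (15.4% and 7.69%, against 14% and 16.4% of all tested genes). The clearest was Grn (chr11:102430315-102437048, plus strand), which encodes progranulin, a secreted protein that is split into granulins in the lysosome. Its level was 54.8, 59.2 and 70.5 CPM in the WT Input libraries and 124, 139 and 120 in WT IP. In KO it was 53.3, 57.8 and 114 in Input and 175, 123 and 140 in IP. Every IP library lay above every Input library of its genotype, with KO Input replicate 3 close below. The log2 ratio was 1.06 in WT (SE 0.25, adjusted p = 0.00408), a 2.09-fold difference, and 1.01 in KO (SE 0.26, adjusted p = 0.00837). The KO call was lost without KO Input replicate 1 (adjusted p = 0.0757) and without replicate 2 (0.065), and the WT call in thinned libraries (0.0511). The exons of Grn overlap those of Fam171a2 on the other strand, and the sources used here do not give whether the counting used strand.

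Cathepsin L (Ctsl, chr13:64359337-64370890, minus strand), a cysteine protease of the lysosome, went the other way. WT Input held 384, 390 and 326 CPM and WT IP 219, 235 and 280, with no overlap. KO Input held 320, 397 and 284 CPM and KO IP 222, 263 and 288, and these overlapped. The log2 ratio was -0.59 in WT (SE 0.17, adjusted p = 0.0219) and -0.38 in KO (SE 0.18, adjusted p = 0.158). In WT it missed the threshold without any one of Input replicates 1 and 2 and IP replicates 1 and 2 (adjusted p = 0.0878, 0.0893, 0.127 and 0.0812), with library totals (0.0933) and with no count filter (0.0739). Ctsl shares exonic bases with Gm49230 on its own strand.

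Cathepsin B (Ctsb), another cysteine protease, and prosaposin (Psap), the precursor of the saposins that help degrade sphingolipids, were next by size of difference relative to error. Ctsb stood at 441 ± 15.3 CPM in WT Input and 585 ± 51.2 in WT IP (SD, n = 3), with no overlap, and at 433 ± 30.2 and 562 ± 67.1 in KO, again with no overlap. Its log2 ratios were 0.41 (SE 0.15, adjusted p = 0.0704) and 0.37 (SE 0.16, adjusted p = 0.105), so it did not pass. Psap had log2 ratios of 0.38 in both genotypes (adjusted p = 0.108 and 0.113). The aspartic protease Ctsd, the hydrolase of the list with the highest mean CPM in WT Input, had ratios of 0.04 (SE 0.15) and -0.32 (SE 0.16, adjusted p = 0.169). Npc2, which binds cholesterol in the lumen, lay lower in IP in all libraries of both genotypes without passing (-0.45, adjusted p = 0.206 in WT; -0.47, adjusted p = 0.211 in KO). The remaining hydrolases (Ctsz, Ctsa, Hexa, Gaa, Lipa, Tpp1 and Neu1) had ratios between -0.74 and 0.69 in WT and between -1.05 and 0.49 in KO, with SEs of 0.22 to 0.52, and none passed.

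None of the 7 lysosomal membrane proteins passed in either genotype. Lamp1 and Lamp2, the main glycoproteins of the lysosomal membrane, had ratios of 0.07 (SE 0.15) and -0.06 (SE 0.19) in WT and 0.10 (SE 0.16) and -0.20 (SE 0.19) in KO. Lamp1 stood at 421 ± 43.2 CPM in WT Input and 441 ± 58.3 in WT IP, and Lamp2 at 140 ± 28.2 and 136 ± 9.14 (SD, n = 3), so both differed by less than the spread between replicates. Scarb2, the receptor that carries glucocerebrosidase to the lysosome, had no overlap in WT (155 ± 19.5 against 210 ± 16.6 CPM, log2 ratio 0.45, adjusted p = 0.0882). The multi-pass membrane proteins Laptm4a and Laptm4b had negative ratios in both genotypes, from -0.19 to -0.58 (lowest adjusted p = 0.0736). The tetraspanin Cd63 was near 0 in both (0.07 and -0.06). Npc1 was thinly counted, at 33.7 ± 11.4 CPM in WT Input, with ratios of -0.31 (SE 0.41) and 0.78 (SE 0.49).

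Of the 5 proton pump genes, the catalytic subunit Atp6v1a passed higher in WT and the membrane-sector subunit Atp6v0d1 passed lower in KO. Each is 20% of the 5, against 14% of all tested genes in WT and 16.4% in KO. Atp6v1a (chr16:44085402-44139705, minus strand) gave only 7, 5 and 2 counts in the WT Input libraries and 20, 25 and 19 in WT IP. These are 17.4, 12.3 and 6.72 CPM against 29.6, 42.8 and 33.5, with no overlap, and a log2 ratio of 1.46 (SE 0.43, adjusted p = 0.0237). In KO the levels were 22.8, 30.8 and 17 in Input and 51.3, 65.4 and 33.2 in IP, also without overlap, with a ratio of 1.05 (SE 0.41, adjusted p = 0.0813). The WT call rests on few reads. It was lost without Input replicate 2 (adjusted p = 0.0814), Input replicate 3 (0.104) or IP replicate 2 (0.0886), and also with the DESeq2 test (0.061) and limma-voom (0.116).

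Atp6v0d1 (chr8:105524465-105566047, minus strand) was read at 60.9, 65.5 and 45.5 CPM in KO Input and 30.3, 32.7 and 26.6 in KO IP, with no overlap. The ratio was -0.95 (SE 0.32, adjusted p = 0.0432), the weakest call of the KO comparison. It missed the threshold when any KO library other than Input replicate 3 was left out (adjusted p = 0.0727 to 0.161), and also with library totals (0.105), no count filter (0.22), the DESeq2 test (0.121), the replicate number as a block (0.0521), the length trend removed (0.114) and a fit of only the compared libraries (0.0846), and without both high-haemoglobin WT libraries (0.0701). In WT it was 34.9, 51.8 and 50.4 CPM in Input and 32.6, 39.4 and 44.0 in IP, which overlap, with a ratio of -0.24 (SE 0.30, adjusted p = 0.649). The proteolipid Atp6v0c and the accessory proteins Atp6ap1 and Atp6ap2 had ratios between -0.32 and 0.24 and none passed. Atp6v0c has processed pseudogenes in the annotation, which could share its reads.

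**Figure D2:**
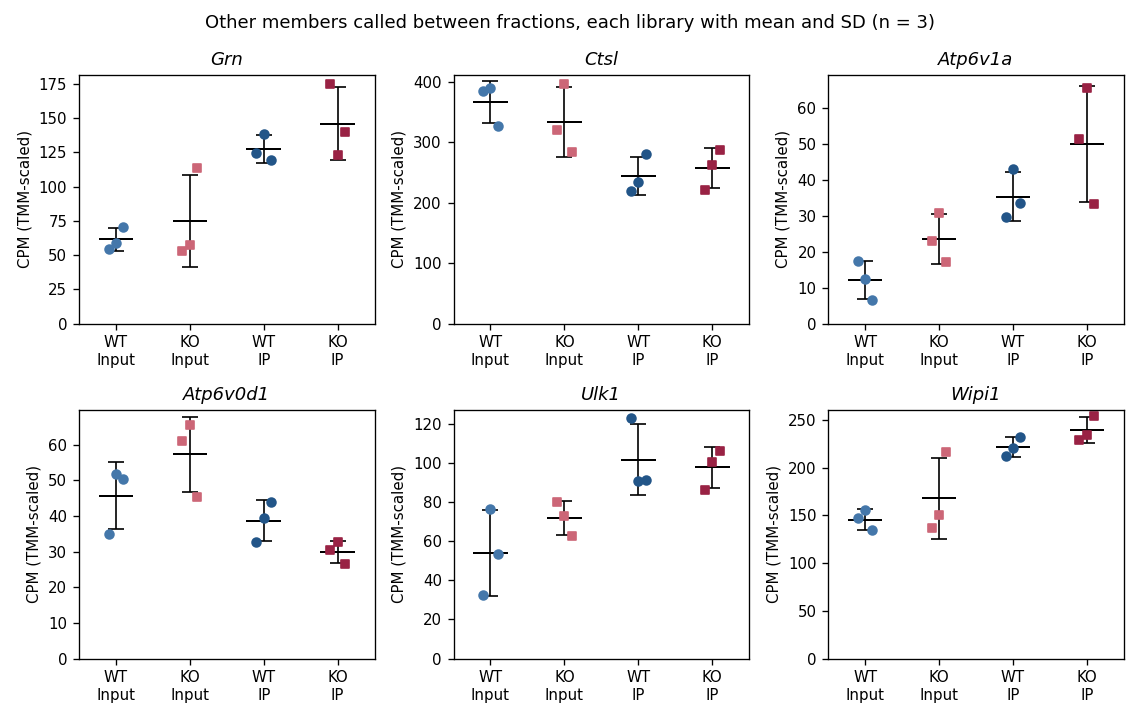
Level in CPM (vertical axis, from 0) of 6 members that passed an IP to Input test other than the LC3 and GABARAP genes and Sqstm1, in each of the 12 libraries (points) with the mean and SD of each group of 3. Grn, Atp6v1a, Ulk1 and Wipi1 lie higher in IP than in Input in both genotypes without overlap. Ctsl and Atp6v0d1 have lower means in IP, but the fractions overlap in KO for Ctsl and in WT for Atp6v0d1.

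Among the 10 autophagy genes, 2 passed higher and 3 lower in WT, and 1 higher and 3 lower in KO. These calls were 50% and 40% of the 10 genes, against 14% and 16.4% of all tested genes. All the lower calls were LC3 or GABARAP genes, whose products are joined to the lipid of the autophagosome membrane. Their summed level was 1927 to 2173 CPM in WT Input and 1402 to 1495 in WT IP, and 1830 to 2273 in KO Input and 1231 to 1311 in KO IP. Every IP library lay below every Input library. The summed Input levels of the genotypes overlapped. The KO IP sums lay below the WT IP sums, a difference that was not tested. Map1lc3a was the largest part of the sum, with means of 773 CPM in WT IP and 624 in KO IP. Means of Gabarapl1 and Gabarapl2 were lower in KO IP too, while those of Gabarap (179 and 198) and Map1lc3b (269 and 278) were higher. No LC3 or GABARAP gene passed between genotypes.

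Map1lc3a (chr2:155276297-155278073, plus strand), the member with the highest mean CPM in Input, stood at 977, 1258 and 1129 CPM in WT Input and at 734, 809 and 776 in WT IP. In KO it stood at 1253, 1229 and 1057 in Input and at 677, 549 and 645 in IP. The fractions did not overlap in either genotype. The log2 ratio was -0.54 in WT (SE 0.15, adjusted p = 0.0175) and -0.92 in KO (SE 0.15, adjusted p = 0.000142). The KO call held under all 17 alternatives (highest adjusted p = 0.007). The WT call missed the threshold without Input replicate 2 or 3 or IP replicate 1 or 3 (adjusted p = 0.11, 0.0544, 0.0984 and 0.0605), with library totals (0.0617) and with no count filter (0.0829).

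Gabarap (chr11:69991143-69994951, plus strand) was the other LC3 or GABARAP gene to pass in both genotypes. It was read at 262, 284 and 319 CPM in WT Input against 167, 171 and 199 in WT IP, and at 385, 300 and 313 in KO Input against 182, 221 and 191 in KO IP. No IP library reached the lowest Input library of its genotype. Its log2 ratios were -0.68 (SE 0.17, adjusted p = 0.00817) and -0.74 (SE 0.18, adjusted p = 0.00417). The WT call was lost without IP replicate 1 (adjusted p = 0.0566) and in libraries thinned to the smallest total (-0.38, adjusted p = 0.253).

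Map1lc3b (chr8:121590361-121598760, plus strand), the LC3 form most used as an autophagosome marker, passed in WT only. WT Input held 419, 372 and 413 CPM and WT IP 271, 254 and 283, with a log2 ratio of -0.57 (SE 0.17, adjusted p = 0.0271). KO Input held 377, 424 and 233 CPM and KO IP 266, 286 and 281, so KO Input replicate 3 lay below all 3 IP libraries, and the ratio of -0.33 (SE 0.18) did not pass (adjusted p = 0.231). Without that library it was -0.52 and passed (adjusted p = 0.0374). The WT call was lost when any WT library other than Input replicate 2 was left out (adjusted p = 0.0594 to 0.106), with library totals (0.0871) and with no count filter (0.0829). The gene overlaps Zcchc14 on the other strand.

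Gabarapl2 (chr8:111940703-111953612, plus strand) passed in KO only, where Input held 114, 173 and 119 CPM and IP 65.3, 60.2 and 79.8. The log2 ratio was -1 (SE 0.23, adjusted p = 0.00379), and without KO Input replicate 2 it was -0.77 and missed the threshold (adjusted p = 0.0651). In WT it was 120, 138 and 144 CPM in Input and 97.7, 90.8 and 113 in IP, with no overlap and a ratio of -0.41 (SE 0.21, adjusted p = 0.202). Gabarapl1 passed in neither genotype. It was read at 150, 121 and 87.3 CPM in WT Input and 132, 99.4 and 123 in WT IP, and at 145, 96.3 and 108 in KO Input and 121, 114 and 73.1 in KO IP. The fractions overlapped in both genotypes and the ratios were -0.03 (SE 0.23) and -0.19 (SE 0.26), of which the WT one turned positive with library totals (0.06).

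**Figure D3:**
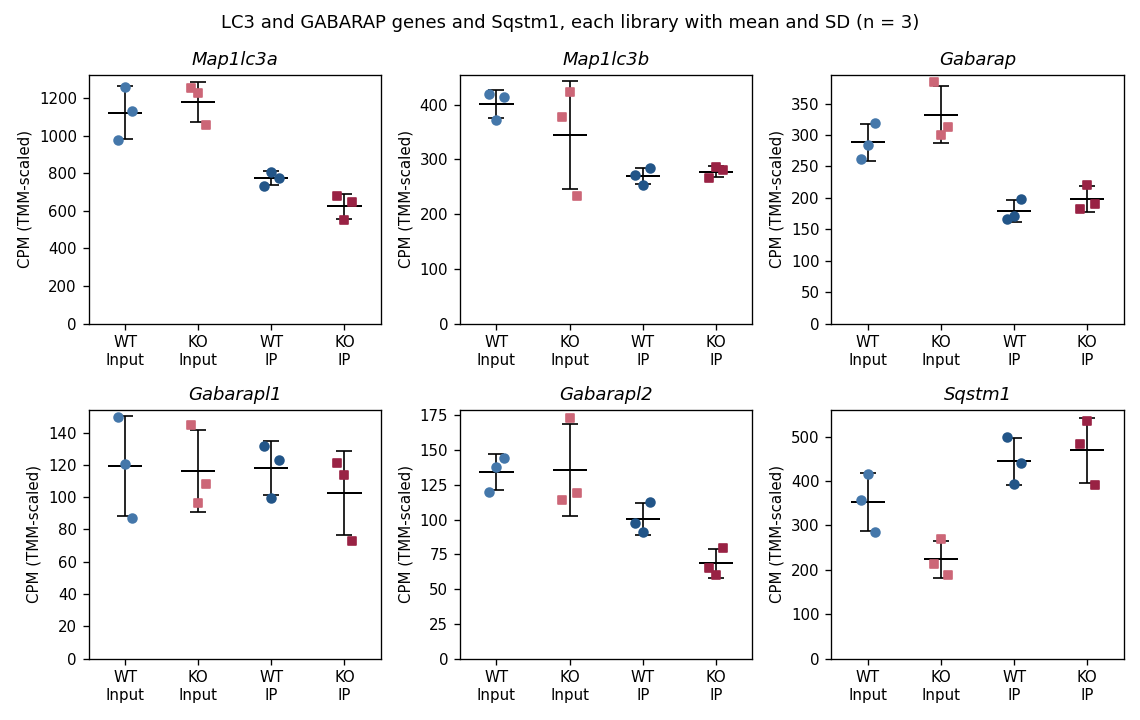
Level in CPM (vertical axis, from 0) of the 5 LC3 and GABARAP genes and of Sqstm1 in each of the 12 libraries (points), with the mean and SD of each group of 3. Map1lc3a and Gabarap are lower in IP than in Input without overlap in both genotypes, Gabarapl1 overlaps throughout, and Sqstm1 is lowest in KO Input (188 to 270 CPM).

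The cargo receptor Sqstm1 (p62; chr11:50199366-50210827, minus strand) gave the largest positive ratio among the KO calls. Its KO Input libraries held 213, 270 and 188 CPM and its KO IP libraries 483, 535 and 391. The fractions were well apart, with a log2 ratio of 1.06 (SE 0.19, adjusted p = 0.000401), a 2.08-fold difference, which held under all 17 alternatives (highest adjusted p = 0.0049). In WT the levels were 356, 417 and 285 CPM in Input and 499, 394 and 440 in IP, which overlap, and the ratio of 0.33 (SE 0.18) did not pass (adjusted p = 0.234). The genotype difference of the ratio, 0.73 (SE 0.26), did not pass either (adjusted p = 0.561). Sqstm1 overlaps Mrnip on the other strand.

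Of the genes that act early in autophagy, the kinase Ulk1 (chr5:110784488-110810097, minus strand) and the lipid-binding protein Wipi1 (chr11:109573331-109611967, minus strand) passed higher in WT. Ulk1 was read at 32.4, 76.4 and 53.7 CPM in WT Input and 123, 90.8 and 91.6 in WT IP, with a ratio of 0.91 (SE 0.27, adjusted p = 0.0231). In KO it was 80.0, 73.2 and 62.5 in Input and 86.3, 101 and 106 in IP, a ratio of 0.44 (SE 0.28, adjusted p = 0.314). Neither genotype showed overlap. The WT call was lost without Input replicate 1 (adjusted p = 0.18), Input replicate 3 (0.0698) or IP replicate 1 (0.118), with the length trend removed (0.079) and in thinned libraries (0.128).

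Wipi1 stood at 147, 155 and 134 CPM in WT Input and 212, 221 and 232 in WT IP, and at 137, 150 and 216 in KO Input and 229, 234 and 254 in KO IP. The fractions did not overlap in either genotype, and the ratios were close, 0.60 (SE 0.18, adjusted p = 0.027) and 0.54 (SE 0.19, adjusted p = 0.053). With any 1 WT library left out, the WT call missed the threshold (adjusted p = 0.0532 to 0.101), as it did in thinned libraries (0.32, adjusted p = 0.412). Becn1, a subunit of the lipid kinase complex, had a ratio of 0.29 (SE 0.31) in WT and -0.84 (SE 0.34, adjusted p = 0.0974) in KO. Atg5, part of the enzyme that lipidates LC3, was thinly counted (15.8 ± 10.1 CPM in WT Input) and had ratios of -0.24 (SE 0.56) and -0.54 (SE 0.54).

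Across the 35 members, the WT and KO ratios, which come from separate libraries, had the same sign for 26 (74.3%), with Pearson r = 0.58 and Spearman rho = 0.56 across genes. Over all 6596 tested genes the same sign was found for 73.6%, with r = 0.66 and rho = 0.62.

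The ratio also moved with transcript length across all genes, and the LC3 and GABARAP mRNAs are short. Over 6594 genes with a length, Spearman rho between the log2 ratio and the length of the longest transcript was 0.30 in WT and 0.34 in KO, and over the 35 members 0.34 and 0.35. These are descriptions across genes, which share libraries. Of the 1177 tested genes under 1500 bp, 25.2% were lower in IP in WT and 28% in KO, with median log2 ratios of -0.36 and -0.41. Map1lc3a (1112 bp) and Gabarap (1351 bp) belong to that class, Gabarapl2 (1677 bp), Gabarapl1 (1820 bp) and Map1lc3b (2633 bp) to the next one, in which 7.26% and 8.27% were lower. Once the trend with length was removed, Map1lc3a had a ratio of -0.17 in WT (adjusted p = 0.434) and -0.54 in KO (adjusted p = 0.007), and Gabarap -0.41 (adjusted p = 0.118) and -0.45 (adjusted p = 0.0886). Gabarapl2 kept a KO ratio of -0.84 (adjusted p = 0.0146) and Map1lc3b a WT ratio of -0.59 (adjusted p = 0.0194). The higher calls of Grn (1.07 and 1.03) and of Sqstm1 in KO (1.05) passed as before, and Ctsl, whose longest transcript has 6168 bp, passed in both genotypes (-0.81, adjusted p = 0.00128 in WT; -0.68, adjusted p = 0.00869 in KO). The Ctsl call in KO, absent from the main fit (-0.38, adjusted p = 0.158), depends on the length assigned from the annotation. Which transcript the reads came from was not determined. In all, 5 members passed in WT and 5 in KO with the trend removed, where 12% and 13.4% of all tested genes passed.

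**Figure D4:**
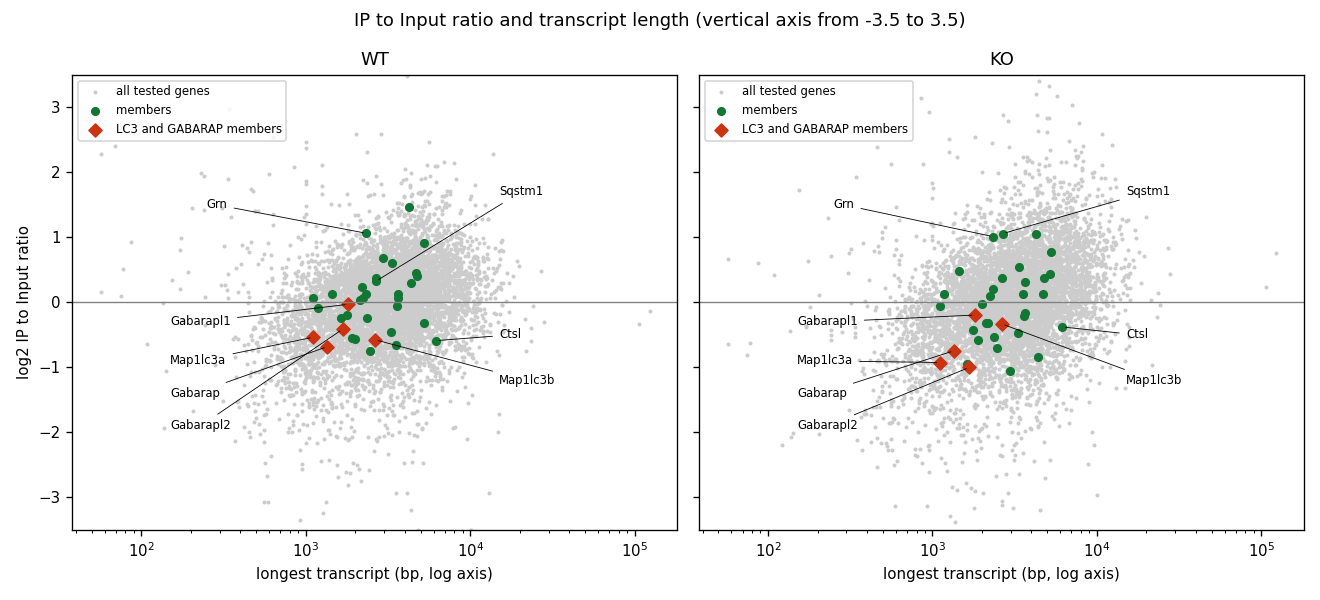
Log2 IP to Input ratio (vertical axis) against the length of the longest annotated transcript in bp (horizontal axis, log scale) in WT and KO; grey points are all tested genes, green the members, red diamonds the LC3 and GABARAP members. Ratios rise with length in both panels (rho 0.30 and 0.34 across 6594 genes), and Map1lc3a and Gabarap lie among the short mRNAs.

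The comparison of genotypes asks whether the loss of Rpl3l went with other levels of these genes. None of the 35 members passed in Input (edgeR, against 0.182% of all genes) and none in IP (against 0.091%). At an unadjusted p under 0.05 there were 2 in Input and 5 in IP, where all tested genes had 469 and 343 of 6596. DESeq2 and limma-voom also called 0 members in both fractions. The median log2 difference of the members was 0.09 in Input and 0.01 in IP, and that of all genes -0.01 and 0.00. SEs ran from 0.15 to 0.59 in Input and from 0.15 to 0.51 in IP, and were widest for the thinly counted members. A missed threshold does not show equal levels.

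The member with the smallest p in Input was Sqstm1. Its WT Input libraries held 356, 417 and 285 CPM and its KO Input libraries 213, 270 and 188, all below WT. The log2 difference was -0.65 (SE 0.20, adjusted p = 0.388), and in IP it was 0.08 (SE 0.17). The other member whose Input groups did not overlap was Lamp2, at 140 ± 28.2 CPM in WT and 182 ± 11.1 in KO (SD, n = 3), a difference of 0.37 (SE 0.20, adjusted p = 0.74). Non-overlap was found for 6.2% (lower) and 6.17% (higher) of all genes, so 1 member in each direction is near the background. Lipa had the largest Input difference, 1.24 (SE 0.54, adjusted p = 0.658), at 3 to 13 counts per library.

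In IP the member with the smallest p was Gabarapl2, at 97.7, 90.8 and 113 CPM in WT and 65.3, 60.2 and 79.8 in KO. All KO libraries lay below all WT libraries, and the log2 difference was -0.55 (SE 0.21, adjusted p = 0.889). Map1lc3a showed the same order at 773 ± 37.3 CPM in WT and 624 ± 66.3 in KO (SD, n = 3), a difference of -0.31 (SE 0.15, adjusted p = 0.943). Scarb2 (-0.36, adjusted p = 0.943) and Atp6ap1 (-0.34, adjusted p = 0.968) were the other 2 whose KO IP libraries all lay lower, 4 of 35 against 5.44% of all genes. Hexa, the alpha subunit of hexosaminidase, lay higher in all KO IP libraries, at 35.4 ± 7.35 CPM in WT and 61.7 ± 19.3 in KO (difference 0.77, SE 0.30, adjusted p = 0.889), against 5.4% of all genes. The remaining LC3 and GABARAP genes and Sqstm1 overlapped between genotypes in IP, with differences of 0.15 (Gabarap), -0.21 (Gabarapl1), 0.05 (Map1lc3b) and 0.08 (Sqstm1).

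**Figure D5:**
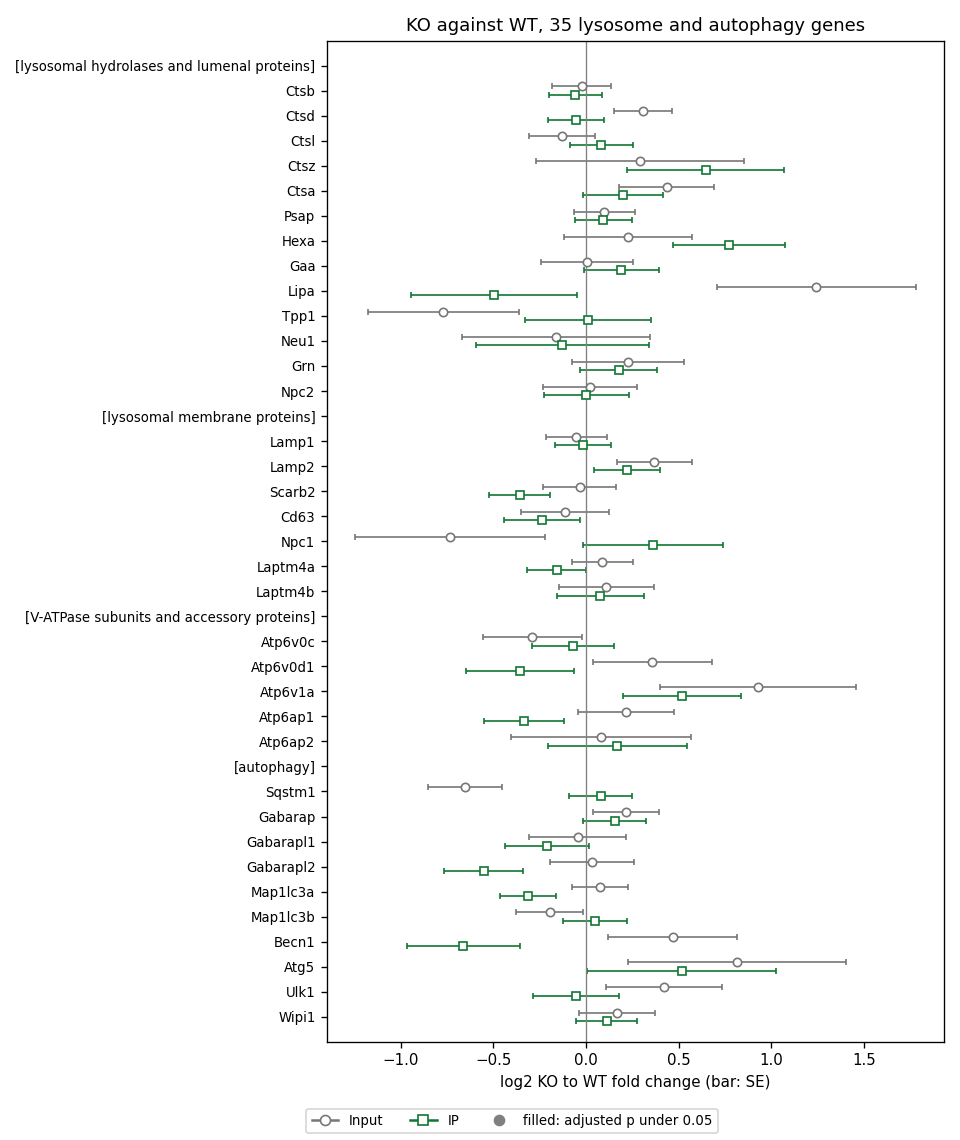
Log2 KO to WT fold change (horizontal axis) of the 35 members in Input (circles) and IP (squares), with SE bars, grouped by role. No symbol is filled, since no member passed at an adjusted p under 0.05 in either fraction; Sqstm1 in Input (-0.65) and Gabarapl2 in IP (-0.55) had the smallest p.

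Differences in Input and in IP, which come from separate libraries, had the same sign for 21 of 35 members (60%) with r = 0.01 across genes, and for 48.5% of all tested genes with r = -0.03. The genotype difference of the IP to Input ratio passed for 0 of 35 members by edgeR (0.091% of all genes) and for 0 by DESeq2 and limma-voom. At an unadjusted p under 0.05 it was found for 3 members, Sqstm1 (0.73), Lipa (-1.74, SE 0.70, adjusted p = 0.62) and Becn1 (-1.13, SE 0.46, adjusted p = 0.624), where all genes had 463. For the LC3 and GABARAP genes it was -0.39 (Map1lc3a, SE 0.21), 0.24 (Map1lc3b, SE 0.25), -0.06 (Gabarap, SE 0.25), -0.17 (Gabarapl1, SE 0.35) and -0.59 (Gabarapl2, SE 0.31). A call in a single genotype, as for Sqstm1, Gabarapl2, Map1lc3b, Ctsl, Ulk1, Wipi1, Atp6v1a and Atp6v0d1, is therefore not shown to differ between genotypes.

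Other genes of the pathway were read from 5 lists of 134 genes, of which 93 passed the filter. None passed between genotypes in Input or IP, and none for the genotype difference of the ratio. At an unadjusted p under 0.05 there were 4, 3 and 3. The smallest p in Input belonged to the protease Ctss (-1.25, adjusted p = 0.526), the conjugating enzyme Atg10 (-1.24, adjusted p = 0.615), the AMPK subunit Prkaa2 (0.65, adjusted p = 0.646), the pump subunit Atp6v1b2 (0.66, adjusted p = 0.75) and the sialomucin Cd164 (-0.44, adjusted p = 0.77), 1 in each list. In IP they were Atg13 (0.84, adjusted p = 0.827), Mtor (-0.85, adjusted p = 0.92), the retromer subunit Vps35 (-0.59, adjusted p = 0.92), the ceramidase Asah1 (0.69, adjusted p = 0.965) and Atp6v0a1 (-0.29, adjusted p = 0.985). For the difference of the ratio, Mtor (-1.41, adjusted p = 0.62), Atg13 (1.15, adjusted p = 0.668), Ppt1 (-1.10, adjusted p = 0.711), Atp6v1b2 (-0.87, adjusted p = 0.756) and Vps35 (-0.55, adjusted p = 0.823) had the smallest.

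Between fractions, 12 of the 93 passed in WT (12.9%; 5 higher, 7 lower) and 11 in KO (11.8%; 6 higher, 5 lower), which is near the 14% and 16.4% of all genes. Without both high-haemoglobin libraries, 2 of the 12 WT calls passed, Nbr1 (1.23, adjusted p = 0.0033) and Atp6v0b (-2.09, adjusted p = 0.012), while among the others Igf2r (-0.60, adjusted p = 0.0833), Lamtor1 (-0.94, 0.059), Atp6v0e (-0.97, 0.0964), Calcoco1 (0.76, 0.128), Atp6v1d (0.72, 0.128), Tspan3 (0.60, 0.128), Vamp8 (-0.90, 0.175) and Lamtor5 (-0.78, 0.175) did not. That fit called 5.98% of all tested genes in WT. Of 27 tested autophagy genes, 4 passed in each genotype in the main fit (14.8%). The cargo receptors Nbr1 and Calcoco1, which like Sqstm1 bind LC3 or GABARAP proteins, were higher in IP in both. Nbr1 stood at 68.4 ± 4.04 CPM in WT Input and 150 ± 24.8 in WT IP, and at 48.3 ± 2.52 and 131 ± 6.51 in KO (SD, n = 3), with no overlap. Its ratios were 1.13 (SE 0.21, adjusted p = 0.000471) and 1.42 (SE 0.25, adjusted p = 0.00024). Calcoco1 rose from 72.1 ± 33.8 to 143 ± 7.3 CPM in WT (0.96, SE 0.24, adjusted p = 0.00871) and from 52.8 ± 13 to 133 ± 9.49 in KO (1.35, SE 0.29, adjusted p = 0.00184), the WT call being lost without Input replicate 1 (adjusted p = 0.0831) or 3 (0.0644). Of the other receptors on the list, chosen for mention after their values were seen, Tax1bp1 passed in KO (0.74, adjusted p = 0.0383; 0.38, adjusted p = 0.244 in WT), and Optn in neither (0.17, adjusted p = 0.661 in WT; 0.42, adjusted p = 0.273 in KO). The Tax1bp1 call was lost under 9 of 17 alternatives, among them the DESeq2 test (adjusted p = 0.0762) and the fits without KO Input replicate 1 (0.244), KO Input replicate 2 (0.119) or KO IP replicate 2 (0.154). Vamp8, a SNARE of autophagosome fusion, was lower in IP in both genotypes (-1.07, adjusted p = 0.0197 and -1.45, adjusted p = 0.00281), and its WT call was lost without Input replicate 3 (adjusted p = 0.0919), IP replicate 1 (0.0838) or IP replicate 2 (0.0557), and in thinned libraries (0.073).

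Of 11 tested pump subunits, 4 passed in WT and 1 in KO (36.4% and 9.09%, against 14% and 16.4% of all tested genes). Atp6v0b fell most, from 70.1 ± 12.5 to 15.4 ± 1.94 CPM in WT (-2.16, SE 0.38, adjusted p = 0.0003) and from 58.6 ± 33.0 to 17.8 ± 7.46 in KO (-1.71, SE 0.41, adjusted p = 0.0043; 0.0827 without KO Input replicate 1), where 1 library pair overlapped. In WT, Atp6v0e was also lower (-1.08, adjusted p = 0.00863) and Atp6v1d higher (0.68, adjusted p = 0.0368, missed without any one of Input replicates 1 to 3 and IP replicates 1 and 2, at adjusted p = 0.0767 to 0.17). In thinned libraries both WT calls were lost (adjusted p = 0.0736 for Atp6v0e, 0.494 for Atp6v1d), and Atp6v1d also with the DESeq2 test (0.0785) and the length trend removed (0.0743). Their KO ratios were -0.79 (adjusted p = 0.0685) and 0.51 (adjusted p = 0.135).

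Of 13 tested membrane and sorting genes, Igf2r, the receptor that carries hydrolases to the lysosome, was lower in IP in both genotypes (421 ± 50.2 to 263 ± 11.2 CPM in WT, -0.67, adjusted p = 0.00526; 487 ± 52.2 to 282 ± 35.4 in KO, -0.80, adjusted p = 0.00122). Its longest transcript has 8887 bp, and the ratios were -0.93 and -1.16 with the length trend removed. Tspan3 was higher in WT (0.54, adjusted p = 0.0428) and missed the threshold without any 1 WT library (adjusted p = 0.0724 to 0.211) and with the DESeq2 test (0.0624). None of 20 tested hydrolases passed in WT. In KO, the lipid-removing enzyme Ppt1 was lower (-1.23, adjusted p = 0.0264), a call that was lost in 4 of the 6 fits with a KO library left out (adjusted p = 0.0728 to 0.133), with library totals (0.0511), no count filter (0.073) and the DESeq2 test (0.051).

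Among 22 tested regulators, 2 passed in WT and 3 in KO (9.09% and 13.6%, against 14% and 16.4% of all tested genes). Lamtor1, which anchors mTORC1 signalling to the lysosome, was lower in IP in both genotypes (118 ± 14.3 to 59.8 ± 1.97 CPM in WT, -0.97, adjusted p = 0.0052; 118 ± 4.22 to 47.8 ± 11.8 in KO, -1.29, adjusted p = 0.000805), and with the length trend removed its ratios were -0.60 (adjusted p = 0.0931) and -0.88 (adjusted p = 0.0217). Lamtor5 was lower in WT (-0.84, adjusted p = 0.0322). In KO the transcription factors Mitf (1.40, adjusted p = 0.0155) and Foxo3 (0.82, adjusted p = 0.0373) were higher in IP. These 3 calls were each lost in fits with 1 library left out: Lamtor5 without WT Input replicate 2 or 3 or WT IP replicate 1 or 2 (adjusted p = 0.0765 to 0.145), Mitf without KO Input replicate 2 or KO IP replicate 2 (0.08 and 0.0851), and Foxo3 without any KO library other than IP replicate 3 (0.062 to 0.115). With the length trend removed, Lamtor5 was -0.37 (adjusted p = 0.376) and Foxo3 0.50 (adjusted p = 0.252). Both were also lost with the DESeq2 test (0.0691 and 0.0641) and in thinned libraries (0.0793 and 0.064), Lamtor5 with library totals (0.069) and no count filter (0.0706), and Foxo3 and Mitf with limma-voom (0.0665 and 0.0887). Tfeb did not pass in either genotype (0.26, adjusted p = 0.722 in WT; 0.37, adjusted p = 0.612 in KO), a gene likewise named after its values were seen.

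Lysosomal genes are expressed strongly in macrophages, so markers of that and other cell types were read beside the members. Of 16 macrophage markers 9 passed the filter, and 0 of them passed any comparison. Their summed level was 609 to 1065 CPM in WT Input, 796 to 979 in KO Input, 813 to 1028 in WT IP and 797 to 905 in KO IP, overlapping throughout. No marker list held a gene that passed between genotypes. Of 6 adipocyte markers 2 passed the filter. Between fractions, both had negative ratios, of which 1 passed in WT and 2 in KO. The adipocyte list summed to 1605 to 2815 CPM in WT Input, 1076 to 1614 in WT IP, 2327 to 2784 in KO Input and 1047 to 1198 in KO IP. It includes Fabp4, which is also a lipid-handling gene of capillaries, so the sum cannot be assigned to adipocytes alone. Of 9 tested endothelial markers, 2 passed higher and 1 lower in WT, and 1 higher and 3 lower in KO (33.3% and 44.4%, against 14% and 16.4% of all tested genes). The endothelial list summed to 2358 to 2782 CPM in WT Input, 1997 to 2094 in WT IP, 2464 to 3114 in KO Input and 1703 to 2047 in KO IP. Fibroblast markers summed to 3147 to 3789 CPM in WT Input, 3490 to 4132 in KO Input, 3370 to 3803 in WT IP and 3953 to 4903 in KO IP, so the KO IP libraries lay above the WT IP libraries. Cardiomyocyte markers were high in all libraries, at 66384 to 76912 CPM. Cav1, Tcf21 and Actc1 had 0 counts in every library, as did 6850 of 21897 protein-coding genes in all. Whether such a 0 reflects absent mRNA or the counting was not tested, so it is not read as an expression level. The part of these cell types in the members' values was not tested.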

How the data were processed

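RNA was measured in 12 libraries of adult mouse heart (4 groups of 3). The deposited files hold 1 raw count per gene and library, which the authors made from nanopore cDNA reads per the labels' protocols. The submitters' processing notes name minimap2 2.14, DESeq2 1.34.0 and the build GRCm38, with no role given. The sources used here name no counting tool, counting rule or use of strand. Of 55401 gene IDs, 55141 matched GENCODE M21 without version, which gave names, lengths and coordinates.

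Counts were tested with edgeR 4.0.16 (limma 3.58.1, R 4.3.3): filterByExpr (minimum count 10, minimum total 15), TMM factors, a quasi-likelihood fit with 1 mean per group over all 12 libraries (common dispersion 0.0333), and Benjamini-Hochberg adjustment over all 6596 tested genes within each of 5 comparisons, at 0.05. These adjusted p-values are two-sided. A rank test of 3 against 3 could not give an exact p under 0.1. SEs of log2 fold changes were computed as |log2 fold change| over the root of the F statistic. Totals of 169359 to 710868 counts limit precision, and 3 counts in a library are 4.22 to 17.7 CPM.

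Alternatives were library totals, DESeq2 size factors, the DESeq2 test (version 1.42.0), limma-voom, a filter of 30 counts in 3 libraries, no count filter, the replicate number as a block, removal of the trend with transcript length (loess span 0.5), only the compared libraries, thinning to the smallest total, and each library left out. Leaving out both high-globin libraries was added after seeing the data. Samples with the same number did not deviate together (correlations -0.115 to 0.0423, with the own number never the closest of 18), and the libraries were treated as unpaired. The tests were tried on simulated counts.

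The members, gene lists and naming rule were chosen with earlier results of these data known. The rule names every called member (at most 8 per comparison), else the one with the smallest p, always the LC3 and GABARAP genes and Sqstm1, and per other list up to 3 called genes, else the one with the smallest p. A gene that the rule names is not reported here.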

Additional observations from a re-analysis of the deposited data

How the results depend on the processing

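No alternative called a member between genotypes in Input or IP or for the genotype difference of the ratio. Between fractions, the 8 members called in WT became 5 with no count filter, 5 with the length trend removed, 4 of 25 tested in thinned libraries, 10 of 34 tested with only the compared libraries and 2 to 5 with 1 library left out (2 without IP replicate 1). In the same order, 6.43%, 12%, 14.4%, 19.7% and 8.46% to 9.62% of all tested genes were called, against 14% in the main fit. The WT calls became 1 (Grn) with both high-globin libraries left out (5.98% of all tested genes), an alternative chosen after seeing the data. The 6 called in KO became 3 (without Input replicate 2, 10.5% of all tested genes) to 8 (without Input replicate 3, 14.3%), against 16.4% in the main fit. With the replicate number as a block, 8 were called in WT and 5 in KO, where Atp6v0d1 was lost (adjusted p = 0.0521), and no other member's call changed. Library totals shifted the median of all genes by 0.15 (log2) in KO IP against Input and by 0.12 in KO against WT in IP. Over the 63 single-gene results and their 1092 alternatives, 931 kept direction and side of the threshold, 131 lost the call, 1 gained it and 29 turned sign.

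Sign changes were all in results that did not pass. In thinned libraries, KO against WT in Input was -0.040 for Map1lc3a and -0.16 for Gabarapl2, in IP -0.10 for Gabarap and 0.14 for Gabarapl1, and the genotype difference of the ratio was 0.22 for Gabarapl1. With library totals Gabarapl1 was 0.0031 (KO against WT, Input) and 0.058 (IP against Input, WT), the latter 0.044 with no count filter and 0.076 with the length trend removed. Gabarapl2 was -0.016 with no filter (KO against WT, Input), and Sqstm1 -0.0014 without the high-globin libraries (KO against WT, IP). With 1 library left out, KO against WT in Input ran from -0.024 to 0.16 for Map1lc3a, -0.26 to 0.14 for Gabarapl1 and -0.21 to 0.15 for Gabarapl2. In IP it ran from -0.0014 to 0.087 for Map1lc3b and -0.032 to 0.20 for Sqstm1. For Gabarapl1, IP against Input ran from -0.20 to 0.16 in WT and -0.33 to 0.017 in KO, and the genotype difference from -0.36 to 0.047, and for Gabarap from -0.15 to 0.068. Where no construction of the alternative shows it, the cause was not tested. Depth limits the 10 members with under 10 counts in some library, and depth is lowest in KO Input.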
